A study of Mus musculus with 12 samples.

Results

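The set described here is a list of 44 genes that respond to type I interferon, chosen by symbol, and all 44 were found among the 57180 genes of the deposited tables. All 44 passed the filter on low counts that left 17820 genes for testing. The list was drawn up with earlier results of these data known, so that its direction as a whole is a description and not independent evidence. RNA was sequenced in bulk from the injured thoracic spinal cord of female C57BL/6J wild-type mice, 7 days after a clip compression at T9-T10. The piece of cord held the lesion with about 0.5 cm on either side.

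Groups of 4 libraries each were compared, 12 in all. OVX8_SCI7 mice were ovariectomised 8 weeks before the injury, OVX2_SCI7 mice were ovariectomised 2 weeks before it, and SCI7 mice had the injury alone. The ovaries, which this operation takes out, make most of the oestrogen in the blood. All 3 groups carry the spinal cord injury, and no sham-operated or uninjured cord was analysed here, so that surgery, hormone loss and time since surgery cannot be told apart. Every label gives an age of 8 weeks, which cannot be the age at collection for OVX8_SCI7, so that age cannot be told apart from the groups either. The labels call the libraries biological replicates and place all of them in 1 batch. The labels do not say whether each library came from a single animal, so that p-values measure the spread between these libraries.

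Type I interferons are secreted alpha and beta cytokines that bind a receptor made of the Ifnar1 and Ifnar2 chains. The receptor activates the kinases Jak1 and Tyk2, and a complex that holds Stat2 and Irf9 then binds a DNA element called the interferon-stimulated response element in front of the target genes. Target genes encode sensors of foreign nucleic acid, enzymes that block viral RNA or protein synthesis, and regulators such as Irf7 and Usp18 that amplify or restrain the pathway. In the injured cord, microglia, astrocytes, endothelial cells and infiltrating leukocytes can all express them.

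The libraries held 18222729 to 31781695 counts, and a floor of 3 counts equalled 0.0931 to 0.164 CPM (counts-per-million, on library sizes scaled by the trimmed mean of M-values). Floors cover counting error only. Transcripts of the mitochondrial genome took 2.2 to 3.36% of the counts in OVX8_SCI7, 2.36 to 8.33% in OVX2_SCI7 and 5.35 to 9.35% in SCI7. Transcript GC content tracked the deviation of protein-coding genes from their 12-library mean in opposite directions in the groups, with a Spearman correlation across 15087 genes of 0.15 to 0.83 in OVX8_SCI7, -0.41 to 0.51 in OVX2_SCI7 and -0.80 to -0.49 in SCI7. Replicate 1 of OVX2_SCI7 stood apart from its group in both measures, at 8.33% and -0.41. Replicate 2 of OVX2_SCI7 stood apart in summed markers of sensory neurons, at 552 CPM against 13.0 to 116 CPM in the other libraries. The counts of genes called are therefore given with and without these 2 libraries.

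Sequences of the promoters came from RefSeq on the build GRCm38.p6, in windows of 300 bases running from 250 before to 50 after the start of a transcript. Windows were at hand for 33 of the 44 genes. The response element was searched as GAAANNGAAA or, on the other strand, TTTCNNTTTC, where N is any base, and overlapping matches were counted. It was found in 13 of the 33 genes (39.4%), against 3.44% of all 32851 windows and 3.99% of all 27025 genes with a window. The genes with a match were Bst2, Eif2ak2, Ifih1, Ifit1, Ifit3, Ifit3b, Ifitm3, Isg15, Oas1a, Oas3, Rsad2, Stat2 and Trim30a. A match is a description of the letters and not a binding site. Isg15 and Bst2 are shown because overlapping copies lie close together in them, Ifit3 and Ifit3b because these neighbouring genes carry the same pair of matches and both had fractional counts in every library, a mark of shared reads, and Irf7 because it has no match in this window although its level differed most among the transcription factors. Each sequence is written from 5′ to 3′ on the strand of the gene, with the matched bases in capitals.
Isg15, chr4:156200769-156201068, minus strand: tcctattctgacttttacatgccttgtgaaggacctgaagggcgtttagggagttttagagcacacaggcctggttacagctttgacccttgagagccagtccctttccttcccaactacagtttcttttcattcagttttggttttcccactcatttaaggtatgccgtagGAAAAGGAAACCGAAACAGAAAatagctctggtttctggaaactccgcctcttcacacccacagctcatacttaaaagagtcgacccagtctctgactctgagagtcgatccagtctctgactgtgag
Bst2, chr8:71537423-71537722, minus strand: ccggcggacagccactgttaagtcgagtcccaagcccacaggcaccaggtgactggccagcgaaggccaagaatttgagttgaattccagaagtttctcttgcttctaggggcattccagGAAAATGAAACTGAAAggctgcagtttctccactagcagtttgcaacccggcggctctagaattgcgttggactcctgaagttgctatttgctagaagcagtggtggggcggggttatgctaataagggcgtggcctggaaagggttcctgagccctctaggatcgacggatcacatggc
Ifit3, chr19:34583279-34583578, plus strand: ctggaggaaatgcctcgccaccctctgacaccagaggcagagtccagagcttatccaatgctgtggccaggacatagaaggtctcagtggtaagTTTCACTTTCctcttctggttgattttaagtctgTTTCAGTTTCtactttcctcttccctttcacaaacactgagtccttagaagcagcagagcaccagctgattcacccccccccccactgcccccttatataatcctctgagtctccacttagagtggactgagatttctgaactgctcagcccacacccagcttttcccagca
Ifit3b, chr19:34607707-34608006, plus strand: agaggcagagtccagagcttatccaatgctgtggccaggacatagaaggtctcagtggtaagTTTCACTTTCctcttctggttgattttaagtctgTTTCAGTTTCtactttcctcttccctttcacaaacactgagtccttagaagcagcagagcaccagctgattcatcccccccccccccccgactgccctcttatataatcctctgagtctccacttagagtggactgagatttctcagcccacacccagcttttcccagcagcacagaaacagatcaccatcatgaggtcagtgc
Irf7, chr7:141266375-141266674, minus strand: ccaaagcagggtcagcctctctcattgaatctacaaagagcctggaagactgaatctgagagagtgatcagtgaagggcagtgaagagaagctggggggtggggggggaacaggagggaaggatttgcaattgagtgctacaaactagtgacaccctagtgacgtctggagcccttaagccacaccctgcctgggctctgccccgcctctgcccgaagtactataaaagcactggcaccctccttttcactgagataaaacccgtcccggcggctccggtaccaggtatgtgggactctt
Isg15 held 3 overlapping matches that begin at positions -78, -72 and -66 relative to the start, and Bst2 held 2 overlapping matches. Oas1a, whose window is not printed, also held 2 overlapping matches, at -20 and -14. Of the genes with a window, 3 of the 10 that rose in OVX8_SCI7 over SCI7 held the element, and 10 of the 23 that did not.

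Ovariectomy 8 weeks before the injury was first set against injury alone. In OVX8_SCI7 over SCI7, 15 of the 44 genes rose, 2 fell and 27 did not pass, in edgeR's quasi-likelihood test at a threshold of 0.05 (Benjamini-Hochberg adjusted p over all 17820 genes). Over all genes tested, 11.9% rose and 15.6% fell. The genes that rose were Oas1a, Oas2, Oasl2, Stat2, Irf7, Irf9, Dhx58, Zbp1, Isg20, Mx1, Bst2, Ifi27, Ifi35, Lgals3bp and Helz2, and the genes that fell were Herc6 and Ifit2. The log2 difference was above 0 for 34 of the 44 genes, against 50.9% of all genes, and its median was 0.55, against 0.01 for all genes. The OVX8_SCI7 libraries lay wholly above the SCI7 libraries for 20 of the 44 genes (19.6% of all genes) and wholly below for 1, Herc6 (19.6% of all genes). In bulk tissue, a change in the number of responding cells and a change in RNA per cell cannot be told apart.

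These calls moved with transcript GC content and with single libraries. With an offset that removes the trend of each library on GC content and length, 0 of the 44 genes and 0% of all genes were called, 22 genes were higher at an unadjusted p under 0.05 (5.85% of all genes), and DESeq2 without the offset called 17 higher and 2 lower (14.4% and 16.5% of all genes). Under the offset the log2 difference was above 0 for 43 of the 44 genes, against 42.2% of all genes, with Cmpk2 the exception at -0.40 and with Herc6 and Ifit2 turned to 0.34 and 0.13, neither of them called, and the median was 0.48. For the 15 genes that rose, the log2 difference under the offset ran from 0.21 for Irf9 to 1.16 for Oas1a and was smaller than without it for 14, Mx1 being the exception at 0.99. Without replicate 2 of OVX8_SCI7, the deepest library, 0 genes passed, with 0% of all genes. Without replicate 3 of that group 4 passed (6.7% of all genes), and without its replicate 1, 9 passed (14% of all genes). Without replicates 1, 2 and 3 of SCI7, 10, 5 and 8 genes passed (12.9%, 9.09% and 16.1% of all genes). Without replicates 1 and 2 of OVX2_SCI7, which enter through the shared estimate of spread, 25 passed (41.9% of all genes).

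Ovariectomy 2 weeks before the injury was then set against injury alone. In OVX2_SCI7 over SCI7, 0 of the 44 genes passed in edgeR's quasi-likelihood test with Benjamini-Hochberg adjustment, as did 0% of all genes. The smallest adjusted p was 0.0520, and 27 of the 44 genes had an unadjusted p under 0.05, all of them higher in OVX2_SCI7, against 17.5% of all genes higher at that level. DESeq2 called 25 of the 44 genes higher (11% of all genes) and limma-voom 11 (1.6% of all genes). The log2 difference was above 0 for 40 of the 44 genes, against 52.5% of all genes, and its median was 0.76, against 0.04 for all genes. The OVX2_SCI7 libraries lay wholly above the SCI7 libraries for 15 of the 44 genes, against 6.13% of all genes, and wholly below for 0, against 6.29%.

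With the GC and length offset, edgeR called 4 of the 44 genes higher in OVX2_SCI7 over SCI7, namely Oas2, Xaf1, Ifi27 and Lgals3bp, among 8 genes in all (0.0449%). The log2 difference was then above 0 for all 44 genes in this fit, against 52.7% of all genes, with a median of 0.78, and the groups did not overlap for 20 of them, against 3.42% of all genes. Without the offset, the count depended on replicate 1 of OVX2_SCI7. When that library was left out edgeR called 25 of the 44 genes higher (17.1% of all genes), and without replicates 1 and 2 together it called 26 (19.9% of all genes).

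The ovariectomy groups were also set against each other. In OVX8_SCI7 over OVX2_SCI7, 0 of the 44 genes and 0% of all genes passed in edgeR's quasi-likelihood test with Benjamini-Hochberg adjustment, with an adjusted p of 0.999 for every member. For 38 of the 44 genes the log2 difference was below 0 and for 6 above it, against 44.5% of all genes above it, with a median of -0.26 against -0.03 for all genes. The 4 genes with an unadjusted p under 0.05 were Oas2, Irf7, Herc6 and Xaf1, all lower in OVX8_SCI7 (2.21% of all genes reached that level in either direction), and 0 of the 44 were called by DESeq2 (0.00601% of all genes higher and 0.003% lower) or by limma-voom (0%). The groups were apart for 4 genes, Oas2, Xaf1, Herc6 and Rtp4, each lower in OVX8_SCI7, against 1.08% of all genes. The means stood lowest in SCI7, higher in OVX8_SCI7 and highest in OVX2_SCI7 for 28 of the 44 genes. Both comparisons with injury alone use the same 4 SCI7 libraries, so that their values stand side by side and are not independent.

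**Figure D1:**
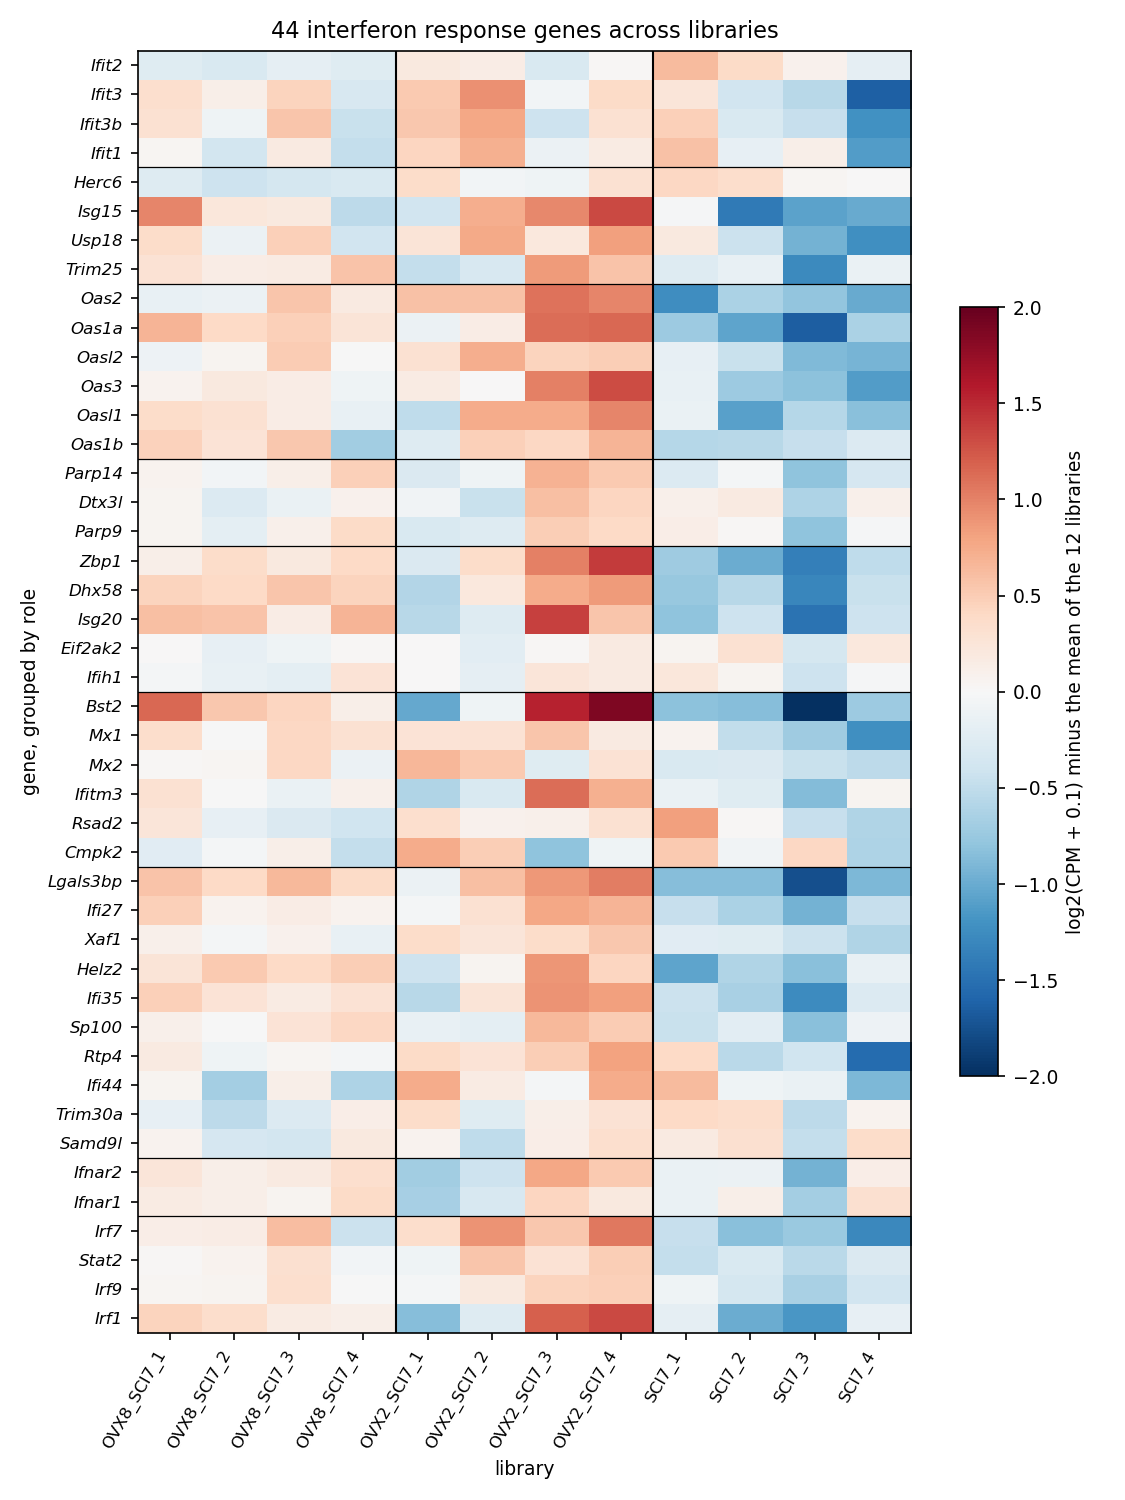
Level of the 44 genes in each library, as log2(CPM + 0.1) minus the mean over the 12 libraries, grouped by role, with the OVX8_SCI7 libraries at left, the OVX2_SCI7 libraries in the middle and the SCI7 libraries at right (red higher, blue lower, colours end at -2 and 2). Replicates 3 and 4 of OVX2_SCI7 hold most of the darkest red cells, and replicates 3 and 4 of SCI7 most of the darkest blue ones.

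The libraries of a group differed among themselves. The median over the 44 genes of the log2 deviation from the mean of the 12 libraries was 0.15, 0.04, 0.17 and 0.08 in OVX8_SCI7 replicates 1 to 4, -0.04, 0.18, 0.52 and 0.53 in OVX2_SCI7, and -0.14, -0.33, -0.74 and -0.45 in SCI7. All 8 libraries from ovariectomised mice lay above all 4 SCI7 libraries, and the OVX8_SCI7 libraries lay closest together. Replicate 3 of SCI7 was the lowest of the 12 libraries for 21 of the 44 genes and replicate 4 for 13, while replicate 4 of OVX2_SCI7 was the highest of the 12 for 16 and replicate 3 for 14. After removal of the GC and length trend, the medians were 0.18, 0.04, 0.14 and 0.06 in OVX8_SCI7, 0.05, 0.35, 0.44 and 0.51 in OVX2_SCI7, and -0.20, -0.36, -0.62 and -0.43 in SCI7, again with no overlap between the ovariectomy groups and SCI7.

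**Figure D2:**
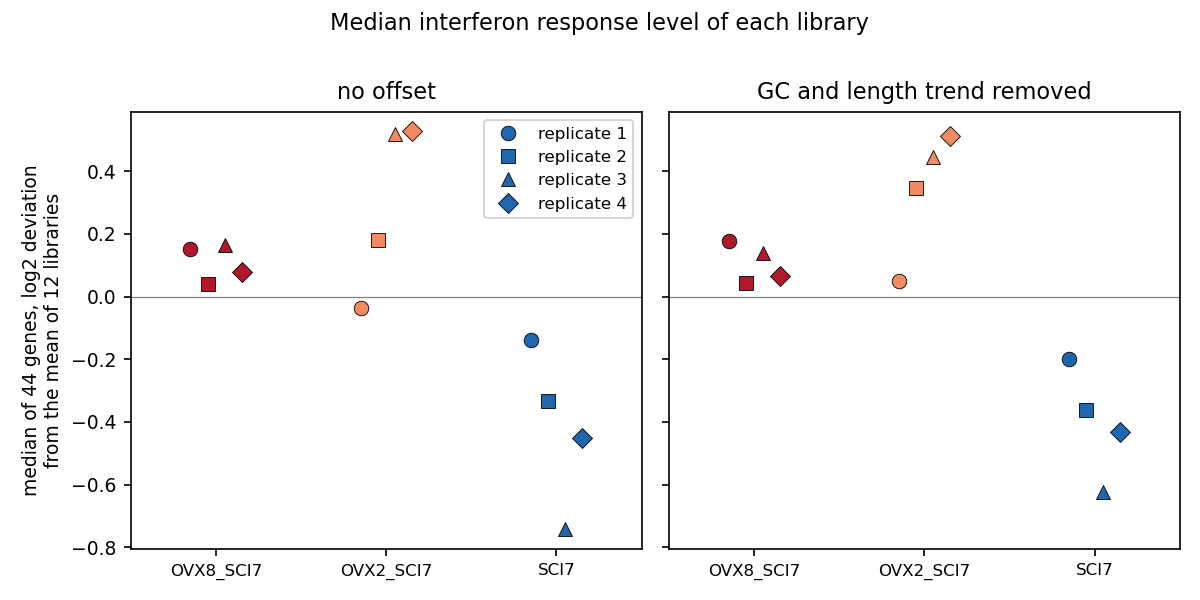
Median log2 deviation of the 44 genes from the mean of the 12 libraries, with 1 point per library and 1 symbol per replicate number, without the offset at left and with the GC and length trend removed at right. The 8 OVX8_SCI7 and OVX2_SCI7 points lie above the 4 SCI7 points in both panels, and replicate 1 of OVX2_SCI7 lies closest to SCI7 without the offset, at -0.04.

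Per unit of transcript length, the most abundant of the 44 genes was Ifitm3, at 288 ± 22.0 TPM (transcripts-per-million, mean ± SD, n = 4) in OVX8_SCI7, 334 ± 162 TPM in OVX2_SCI7 and 202 ± 57.7 TPM in SCI7. Lgals3bp and Ifi27 held the next places in every group, in changing order. Lgals3bp stood at 208 ± 16.4 TPM in OVX8_SCI7, 223 ± 61.9 TPM in OVX2_SCI7 and 69.7 ± 17.8 TPM in SCI7. The least abundant was Oas3 in all 3 groups, at 1.02 ± 0.289 TPM in OVX8_SCI7, 1.33 ± 0.430 TPM in OVX2_SCI7 and 0.522 ± 0.117 TPM in SCI7. Even Oas3 stayed above the floor of 3 counts in all 12 libraries.

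The receptor chains did not pass in any comparison. Ifnar1, the chain that binds the kinase Tyk2, stood at 88.9, 85.7, 82.6 and 103 CPM in OVX8_SCI7 replicates 1 to 4, 50.2, 63.3, 106 and 90.9 CPM in OVX2_SCI7 and 72.2, 85.4, 49.6 and 98.9 CPM in SCI7. Its groups overlapped, with the lowest levels in replicate 1 of OVX2_SCI7 and replicate 3 of SCI7, and its log2 difference from SCI7 was 0.24 (SE 0.25) in OVX8_SCI7 and 0.02 (SE 0.25) in OVX2_SCI7. Ifnar2, the chain with the higher affinity for interferon, stood at 62.8, 57.6, 60.4 and 67.1 CPM in OVX8_SCI7, 32.6, 40.0, 90.8 and 76.7 CPM in OVX2_SCI7 and 48.4, 49.1, 27.4 and 58.1 CPM in SCI7. The groups overlapped here too, since replicate 4 of SCI7 reached the level of the OVX8_SCI7 libraries, and the log2 difference from SCI7 was 0.44 (SE 0.31) in OVX8_SCI7 and 0.39 (SE 0.31) in OVX2_SCI7. Both chains had their highest group mean in OVX8_SCI7, an order shared with Dhx58, Isg20, Helz2 and Trim25.

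Of the transcription factors, Stat2, Irf9 and Irf7 rose in OVX8_SCI7 and Irf1 did not pass. Stat2, a subunit of the complex that binds the response element, stood at 37.4, 38.5, 45.5 and 35.4 CPM in OVX8_SCI7, 34.4, 53.9, 44.7 and 51.3 CPM in OVX2_SCI7 and 26.3, 29.5, 25.2 and 30.0 CPM in SCI7. Every ovariectomy library lay above every SCI7 library. It was 1.41-fold higher in OVX8_SCI7 than in SCI7 (log2 difference 0.50, SE 0.15, edgeR, Benjamini-Hochberg adjusted p = 0.0335; with the offset 0.25, adjusted p = 0.298) and had a log2 difference of 0.73 (SE 0.15) in OVX2_SCI7 over SCI7. Irf9, the DNA-binding subunit of the same complex, stood at 34.6, 34.9, 42.6 and 33.7 CPM in OVX8_SCI7, 32.9, 38.6, 45.8 and 47.2 CPM in OVX2_SCI7 and 31.6, 26.3, 21.4 and 25.7 CPM in SCI7. Its groups were likewise apart, by a narrow margin over replicate 1 of SCI7, and replicate 3 of OVX8_SCI7 stood above the other libraries of its group. Irf9 had a log2 difference of 0.47 (SE 0.16, edgeR, Benjamini-Hochberg adjusted p = 0.0452) in OVX8_SCI7 over SCI7 and 0.65 (SE 0.16) in OVX2_SCI7 over SCI7. With the offset its OVX8_SCI7 value was 0.21 (edgeR, Benjamini-Hochberg adjusted p = 0.375).

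Irf7, the factor that amplifies interferon production, stood at 17.7, 17.8, 24.8 and 12 CPM in OVX8_SCI7, 20.6, 30.3, 23.4 and 33.6 CPM in OVX2_SCI7 and 11.7, 8.97, 9.54 and 6.56 CPM in SCI7. All 8 ovariectomy libraries lay above all SCI7 libraries, replicate 4 of OVX8_SCI7 by little. The level was 1.97-fold higher in OVX8_SCI7 (log2 difference 0.98, SE 0.25, edgeR, Benjamini-Hochberg adjusted p = 0.0183), and the log2 difference was 1.55 (SE 0.25) in OVX2_SCI7 over SCI7. With the offset the OVX8_SCI7 value was 0.40 (edgeR, Benjamini-Hochberg adjusted p = 0.431), and the OVX8_SCI7 and SCI7 libraries then overlapped. Irf1, a factor induced by type I and type II interferons, stood at 25.9, 24.1, 21.2 and 20.6 CPM in OVX8_SCI7, 10.4, 15.8, 43.7 and 47.6 CPM in OVX2_SCI7 and 16.7, 9.45, 8.34 and 16.9 CPM in SCI7. OVX8_SCI7 lay above SCI7, whereas OVX2_SCI7 split, with replicates 3 and 4 far above all other libraries and replicates 1 and 2 within the range of SCI7. With that spread Irf1 did not pass in either comparison (edgeR, Benjamini-Hochberg adjusted p = 0.152 in OVX8_SCI7 over SCI7 and 0.0879 in OVX2_SCI7 over SCI7), and its counts were estimated from shared reads.

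**Figure D3:**
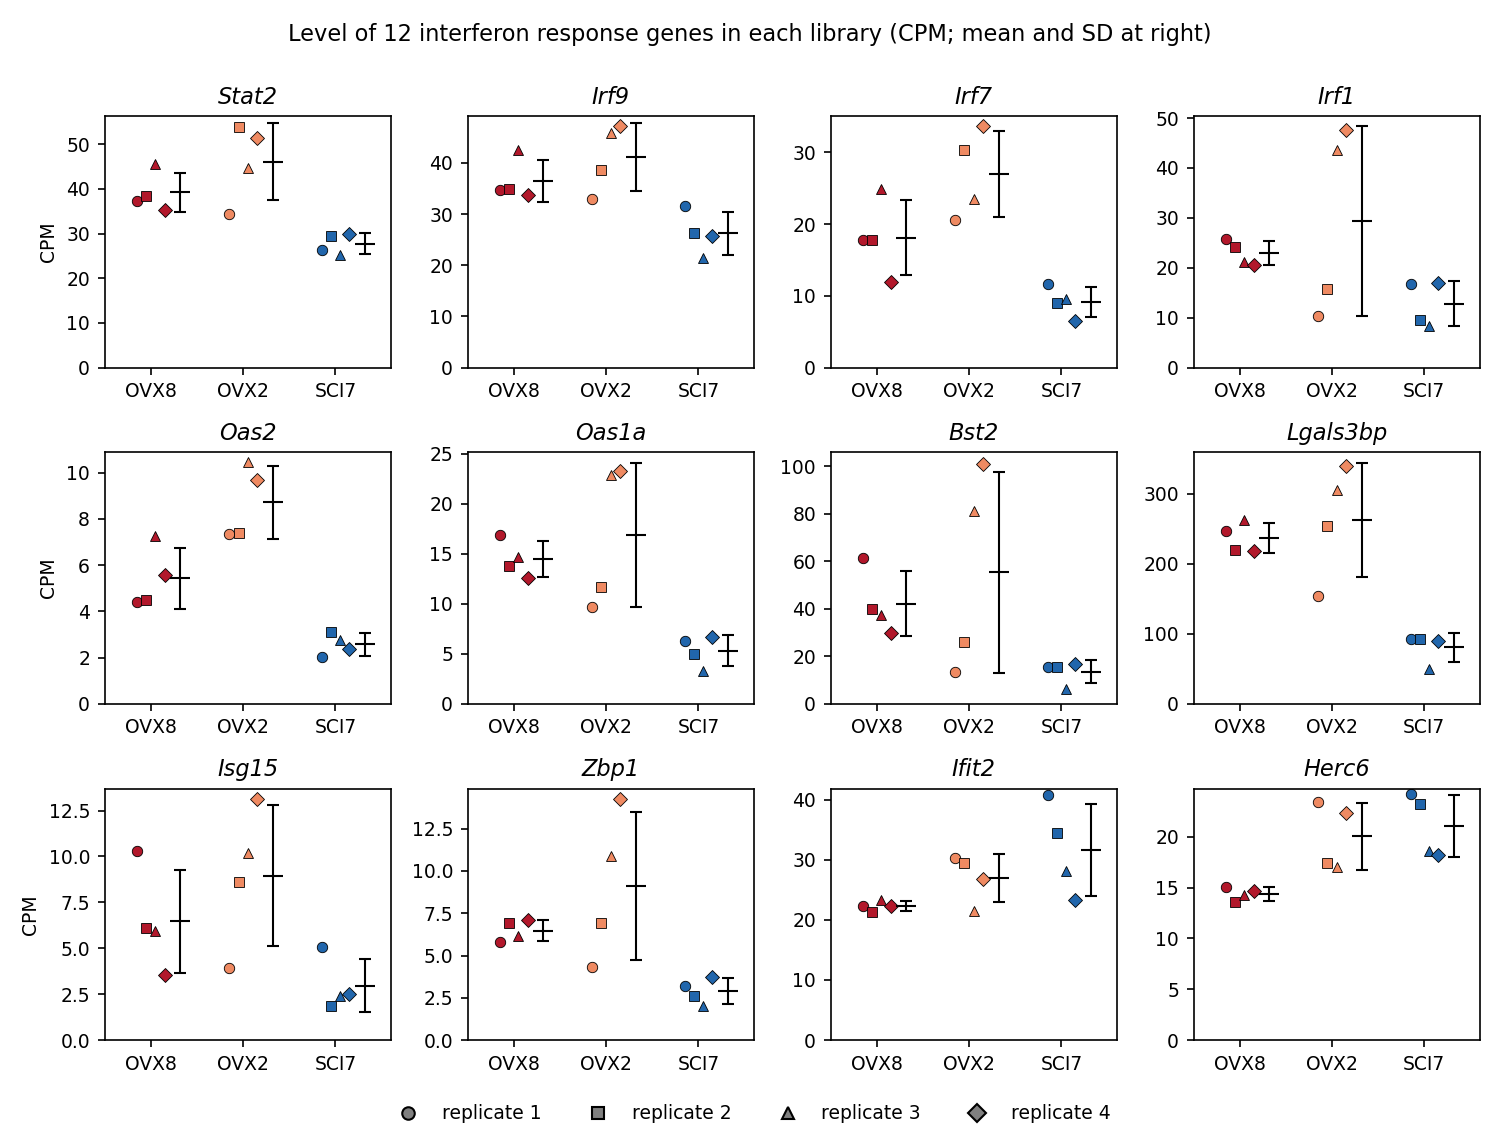
CPM of 12 of the genes in each library, with OVX8_SCI7 at left, OVX2_SCI7 in the middle and SCI7 at right in each panel, 1 symbol per replicate number, and the mean with its SD (n = 4) beside the points. Stat2, Irf9, Irf7, Oas2, Oas1a, Lgals3bp and Zbp1 show all ovariectomy libraries above all SCI7 libraries, while Irf1 and Bst2 split within OVX2_SCI7 and Herc6 is lowest in OVX8_SCI7, a direction that turns under the GC and length offset.

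The oligoadenylate synthetases make short RNAs that activate RNase L, and of their 6 members on the list 3 rose in OVX8_SCI7, Oas1a, Oas2 and Oasl2, and none fell. Oas2 stood at 4.41, 4.50, 7.24 and 5.56 CPM in OVX8_SCI7, 7.37, 7.38, 10.5 and 9.69 CPM in OVX2_SCI7 and 2.01, 3.12, 2.78 and 2.37 CPM in SCI7. The 3 groups did not overlap at all, with OVX2_SCI7 highest and SCI7 lowest. Oas2 was 2.11-fold higher in OVX8_SCI7 than in SCI7 (log2 difference 1.08, SE 0.23, edgeR, Benjamini-Hochberg adjusted p = 0.0143). The GC and length offset gave 0.94 there (edgeR, Benjamini-Hochberg adjusted p = 0.110). In OVX2_SCI7 over SCI7 the log2 difference was 1.76 (SE 0.23, edgeR, Benjamini-Hochberg adjusted p = 0.0520), and with the GC and length offset it was 1.72 (SE 0.22, edgeR, Benjamini-Hochberg adjusted p = 0.0225).

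Oas1a, whose counts were also estimated from shared reads, stood at 16.9, 13.8, 14.6 and 12.6 CPM in OVX8_SCI7, 9.65, 11.6, 22.8 and 23.3 CPM in OVX2_SCI7 and 6.29, 5.0, 3.27 and 6.71 CPM in SCI7. SCI7 lay below every other library, and OVX2_SCI7 split into a lower and a higher pair. It was 2.72-fold higher in OVX8_SCI7 (log2 difference 1.44, SE 0.31, edgeR, Benjamini-Hochberg adjusted p = 0.0143), and the log2 difference was 1.66 (SE 0.31) in OVX2_SCI7 over SCI7. For OVX8_SCI7 the offset gave 1.16 (edgeR, Benjamini-Hochberg adjusted p = 0.0896). Which genes shared those reads was not given, and Oas1b, a close copy, had whole counts in every library. Oasl2, a synthetase-like protein, averaged 37.8 ± 7.55 CPM in OVX8_SCI7, 48.9 ± 5.87 CPM in OVX2_SCI7 and 23.3 ± 6.11 CPM in SCI7. Oas3, Oasl1 and Oas1b did not pass and had log2 differences of 0.73 to 0.84 in OVX8_SCI7 and 0.88 to 1.44 in OVX2_SCI7 over SCI7.

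The IFIT proteins bind viral RNA and block its translation, and of the 4 on the list, 2 had a log2 difference above 0 and 2 below it in OVX8_SCI7 over SCI7, all 4 standing above 0 under the GC and length offset. Ifit2 stood at 22.3, 21.3, 23.3 and 22.2 CPM in OVX8_SCI7, 30.3, 29.4, 21.4 and 26.8 CPM in OVX2_SCI7 and 40.8, 34.4, 28.2 and 23.2 CPM in SCI7. The OVX8_SCI7 libraries lay close together at the low end, and replicate 4 of SCI7 fell within their range. Ifit2 fell in OVX8_SCI7 over SCI7 (log2 difference -0.51, SE 0.18, edgeR, Benjamini-Hochberg adjusted p = 0.0499), a direction that turned to 0.13 under the GC and length offset, and its log2 difference was -0.23 (SE 0.18) in OVX2_SCI7 over SCI7. Ifit3, a partner of Ifit1, stood at 48.1, 41.4, 51.8 and 30.7 CPM in OVX8_SCI7, 54.8, 72.0, 36.9 and 49.9 CPM in OVX2_SCI7 and 45, 29.1, 26.0 and 12.2 CPM in SCI7. The groups overlapped, because replicate 1 of SCI7 was within the range of both ovariectomy groups, and replicate 4 of SCI7 was the lowest library.

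Ifit3 did not pass, with a log2 difference of 0.62 (SE 0.33, edgeR, Benjamini-Hochberg adjusted p = 0.172) in OVX8_SCI7 and 0.93 (SE 0.33, edgeR, Benjamini-Hochberg adjusted p = 0.0865) in OVX2_SCI7 over SCI7. Ifit3 and Ifit3b both had fractional counts in every library, and their sum averaged 62.4 ± 14.9 CPM in OVX8_SCI7, 76.2 ± 21.6 CPM in OVX2_SCI7 and 42.9 ± 20.5 CPM in SCI7 (SD, n = 4 each). Their promoter windows printed above hold the same pair of response element matches. Ifit1 averaged 13.5 ± 2.94 CPM in OVX8_SCI7, 18.5 ± 4.55 CPM in OVX2_SCI7 and 14.5 ± 6.45 CPM in SCI7, and did not pass.

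In the ISG15 system, Herc6 fell in OVX8_SCI7 and Isg15, Usp18 and Trim25 did not pass. Isg15, a ubiquitin-like protein that is coupled to other proteins, stood at 10.3, 6.08, 5.94 and 3.56 CPM in OVX8_SCI7, 3.92, 8.59, 10.2 and 13.1 CPM in OVX2_SCI7 and 5.07, 1.88, 2.40 and 2.52 CPM in SCI7. The groups overlapped through replicate 1 of SCI7, which exceeded replicate 4 of OVX8_SCI7 and replicate 1 of OVX2_SCI7. The log2 difference was 1.13 (SE 0.43, edgeR, Benjamini-Hochberg adjusted p = 0.0662) in OVX8_SCI7 over SCI7 and 1.59 (SE 0.43, edgeR, Benjamini-Hochberg adjusted p = 0.0539) in OVX2_SCI7 over SCI7. Its promoter, with 3 overlapping matches, is the one printed above with the most.

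Herc6, the main ligase that couples Isg15 in mice, stood at 15.1, 13.5, 14.2 and 14.6 CPM in OVX8_SCI7, 23.4, 17.4, 17 and 22.3 CPM in OVX2_SCI7 and 24.2, 23.2, 18.6 and 18.2 CPM in SCI7. OVX8_SCI7 lay below both other groups, which overlapped each other. Its log2 difference was -0.55 (SE 0.15, edgeR, Benjamini-Hochberg adjusted p = 0.0243) in OVX8_SCI7 over SCI7, which turned to 0.34 under the GC and length offset, and -0.07 (SE 0.15) in OVX2_SCI7 over SCI7, which turned to 0.69. Herc6 has one of the lowest transcript GC contents on the list, 39.4%. Usp18, the protease that removes Isg15 and restrains the receptor, averaged 6.89 ± 1.91 CPM in OVX8_SCI7, 9.21 ± 2.03 CPM in OVX2_SCI7 and 4.44 ± 2.05 CPM in SCI7. Trim25, a ubiquitin ligase of antiviral signalling, averaged 63.0 ± 8.80 CPM in OVX8_SCI7, 61.3 ± 26.9 CPM in OVX2_SCI7 and 39.2 ± 12.2 CPM in SCI7.

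Of the 5 sensors and effectors of foreign nucleic acid, Dhx58, Zbp1 and Isg20 rose in OVX8_SCI7. Dhx58, a helicase that regulates RNA sensing, stood at 9.56, 9.25, 10.3 and 9.61 CPM in OVX8_SCI7, 4.61, 8.17, 11.7 and 12.7 CPM in OVX2_SCI7 and 4.12, 4.73, 2.78 and 5.15 CPM in SCI7. OVX8_SCI7 was tight and wholly above SCI7, while replicate 1 of OVX2_SCI7 fell among the SCI7 libraries. It was 2.31-fold higher in OVX8_SCI7 (log2 difference 1.21, SE 0.29, edgeR, Benjamini-Hochberg adjusted p = 0.0164), and the log2 difference was 1.15 (SE 0.29) in OVX2_SCI7 over SCI7. With the offset the OVX8_SCI7 value was 0.78 (edgeR, Benjamini-Hochberg adjusted p = 0.137). Zbp1, a sensor of Z-form nucleic acids that can start cell death, stood at 5.77, 6.92, 6.14 and 7.07 CPM in OVX8_SCI7, 4.35, 6.92, 10.9 and 14.3 CPM in OVX2_SCI7 and 3.22, 2.63, 2.02 and 3.74 CPM in SCI7. Every ovariectomy library was above every SCI7 library, with replicate 4 of OVX2_SCI7 highest.

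Zbp1 was 2.23-fold higher in OVX8_SCI7 than in SCI7 (log2 difference 1.16, SE 0.33, edgeR, Benjamini-Hochberg adjusted p = 0.0259), and its log2 difference was 1.65 (SE 0.33) in OVX2_SCI7. For OVX8_SCI7 the offset gave 0.80 (edgeR, Benjamini-Hochberg adjusted p = 0.175). Isg20, an exonuclease that degrades RNA, averaged 3.56 ± 0.557 CPM in OVX8_SCI7, 3.48 ± 2.22 CPM in OVX2_SCI7 and 1.46 ± 0.477 CPM in SCI7, the groups of its OVX8_SCI7 comparison being apart; its log2 difference there was 1.28, and 0.59 with the offset. Ifih1, the sensor of long double-stranded RNA, averaged 20.8 ± 3.20 CPM in OVX8_SCI7, 22.0 ± 2.80 CPM in OVX2_SCI7 and 20.7 ± 3.67 CPM in SCI7. Eif2ak2, the kinase that halts translation on double-stranded RNA, averaged 32.5 ± 2.00 CPM in OVX8_SCI7, 33.9 ± 3.79 CPM in OVX2_SCI7 and 35.5 ± 6.57 CPM in SCI7. Ifih1 and Eif2ak2 did not pass, and their group means differed by less than the SD of SCI7.

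Among the antiviral GTPases, membrane proteins and nucleotide enzymes, Mx1 and Bst2 rose in OVX8_SCI7 and 4 did not pass. Mx1, a dynamin-like GTPase, stood at 4.10, 3.17, 4.30 and 3.99 CPM in OVX8_SCI7, 3.87, 3.94, 4.77 and 3.63 CPM in OVX2_SCI7 and 3.38, 2.26, 1.91 and 1.31 CPM in SCI7. Replicate 1 of SCI7 overlapped with OVX8_SCI7 and not with OVX2_SCI7. Mx1 had a log2 difference of 0.81 (SE 0.26, edgeR, Benjamini-Hochberg adjusted p = 0.0395) in OVX8_SCI7 over SCI7 and 0.87 (SE 0.26) in OVX2_SCI7 over SCI7. The deposited tables class Mx1, Mx2 and Oas1b as coding genes with loss of function, and defective Mx1 alleles are known from C57BL/6 mice.

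Bst2, also called tetherin, which holds budding virus at the cell surface, stood at 61.5, 40.0, 37.4 and 29.9 CPM in OVX8_SCI7, 13.5, 26.0, 81.0 and 101 CPM in OVX2_SCI7 and 15.7, 15.4, 6.22 and 16.7 CPM in SCI7. OVX8_SCI7 lay wholly above SCI7, whereas OVX2_SCI7 ran from a library within the SCI7 range to the highest of all. It was 3.13-fold higher in OVX8_SCI7 (log2 difference 1.65, SE 0.55, edgeR, Benjamini-Hochberg adjusted p = 0.0435), and the log2 difference in OVX2_SCI7 over SCI7 was 2.04 (SE 0.55, edgeR, Benjamini-Hochberg adjusted p = 0.0541). With the offset the OVX8_SCI7 value was 1.04 (edgeR, Benjamini-Hochberg adjusted p = 0.206). Ifitm3, which blocks the entry of enveloped viruses, averaged 70.4 ± 9.20 CPM in OVX8_SCI7, 88.1 ± 47.9 CPM in OVX2_SCI7 and 55.7 ± 13.8 CPM in SCI7, and replicates 3 and 4 of OVX2_SCI7 were its highest libraries. Mx2 averaged 4.05 ± 0.690 CPM in OVX8_SCI7, 4.81 ± 1.25 CPM in OVX2_SCI7 and 2.84 ± 0.232 CPM in SCI7. Rsad2, which makes a chain-terminating nucleotide, and its neighbour Cmpk2, a nucleotide kinase of mitochondria, had log2 differences of -0.18 and -0.27 in OVX8_SCI7 and 0.15 and 0.08 in OVX2_SCI7 over SCI7, none of which passed.

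Parp14, Parp9 and Dtx3l, which modify proteins with ADP-ribose or ubiquitin, did not pass. Parp14 stood at 37.3, 34.2, 38.6 and 49.7 CPM in OVX8_SCI7, 29.1, 33.6, 57.5 and 51.3 CPM in OVX2_SCI7 and 29.5, 34.8, 20.4 and 28.3 CPM in SCI7. The groups overlapped, and the log2 difference was 0.50 (SE 0.23) in OVX8_SCI7 and 0.60 (SE 0.24) in OVX2_SCI7 over SCI7. Dtx3l, the ubiquitin ligase that pairs with Parp9, stood at 26.7, 21.3, 23.5 and 27.3 CPM in OVX8_SCI7, 24.5, 19.0, 39.1 and 34.7 CPM in OVX2_SCI7 and 27.6, 29.3, 16.8 and 27.5 CPM in SCI7. Replicate 3 of SCI7 was the lowest library and the groups overlapped. Dtx3l had a log2 difference of -0.04 (SE 0.24) in OVX8_SCI7 over SCI7, which turned to 0.28 under the GC and length offset, and 0.21 (SE 0.24) in OVX2_SCI7 over SCI7. Parp9 and Dtx3l both had fractional counts in every library, and their sum averaged 51.5 ± 6.85 CPM in OVX8_SCI7, 56.6 ± 16.9 CPM in OVX2_SCI7 and 48.3 ± 11.5 CPM in SCI7 (SD, n = 4 each).

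Of the 10 other induced genes, Lgals3bp, Ifi27, Helz2 and Ifi35 rose in OVX8_SCI7. Lgals3bp, a secreted glycoprotein that binds galectins, stood at 247, 219.9, 262 and 218 CPM in OVX8_SCI7, 153, 253, 305 and 339.9 CPM in OVX2_SCI7 and 92.4, 92.2, 49.2 and 89.3 CPM in SCI7. All ovariectomy libraries exceeded all SCI7 libraries by a wide margin, and replicate 3 of SCI7 was lowest. It was 2.93-fold higher in OVX8_SCI7 than in SCI7 (log2 difference 1.55, SE 0.26, edgeR, Benjamini-Hochberg adjusted p = 0.0143) and had a log2 difference of 1.70 (SE 0.26, edgeR, Benjamini-Hochberg adjusted p = 0.0520) in OVX2_SCI7 over SCI7. With the GC and length offset the OVX2_SCI7 value was 1.26 (edgeR, Benjamini-Hochberg adjusted p = 0.0274) and the OVX8_SCI7 value 0.99 (adjusted p = 0.0896).

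Ifi27, a small hydrophobic membrane protein, stood at 72.3, 54.6, 57.5 and 54.7 CPM in OVX8_SCI7, 50.8, 64.4, 89.0 and 83.7 CPM in OVX2_SCI7 and 37.6, 33.5, 27.1 and 37.8 CPM in SCI7. The ovariectomy libraries again lay wholly above the SCI7 libraries. It was 1.76-fold higher in OVX8_SCI7 (log2 difference 0.81, SE 0.19, edgeR, Benjamini-Hochberg adjusted p = 0.0151), where the offset gave 0.45 (edgeR, Benjamini-Hochberg adjusted p = 0.0896). In OVX2_SCI7 over SCI7 its log2 difference was 1.08 and did not pass (edgeR, Benjamini-Hochberg adjusted p = 0.0520). With the offset the OVX2_SCI7 value was 0.72 (SE 0.08, edgeR, Benjamini-Hochberg adjusted p = 0.0225). Xaf1, a promoter of apoptosis, averaged 13.2 ± 1.10 CPM in OVX8_SCI7, 17.2 ± 1.5 CPM in OVX2_SCI7 and 10.2 ± 1.21 CPM in SCI7, with all 3 groups apart, and passed in OVX2_SCI7 over SCI7 with the offset (log2 difference 0.93, edgeR, Benjamini-Hochberg adjusted p = 0.0225). Helz2, a helicase and coactivator of nuclear receptors, averaged 31.3 ± 2.56 CPM in OVX8_SCI7, 29.2 ± 11 CPM in OVX2_SCI7 and 15.2 ± 4.33 CPM in SCI7. Ifi35 averaged 13.6 ± 1.25 CPM in OVX8_SCI7, 15.1 ± 6.08 CPM in OVX2_SCI7 and 7.14 ± 1.95 CPM in SCI7. In OVX8_SCI7 over SCI7, Helz2 and Ifi35 had log2 differences of 1.04 and 0.92, which were 0.51 and 0.45 with the offset. Sp100, a protein of nuclear bodies, Rtp4, a chaperone of membrane receptors, and Ifi44 did not pass, and neither did Trim30a and Samd9l, whose log2 differences in OVX8_SCI7 over SCI7 were -0.31 and -0.22.

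**Figure D4:**
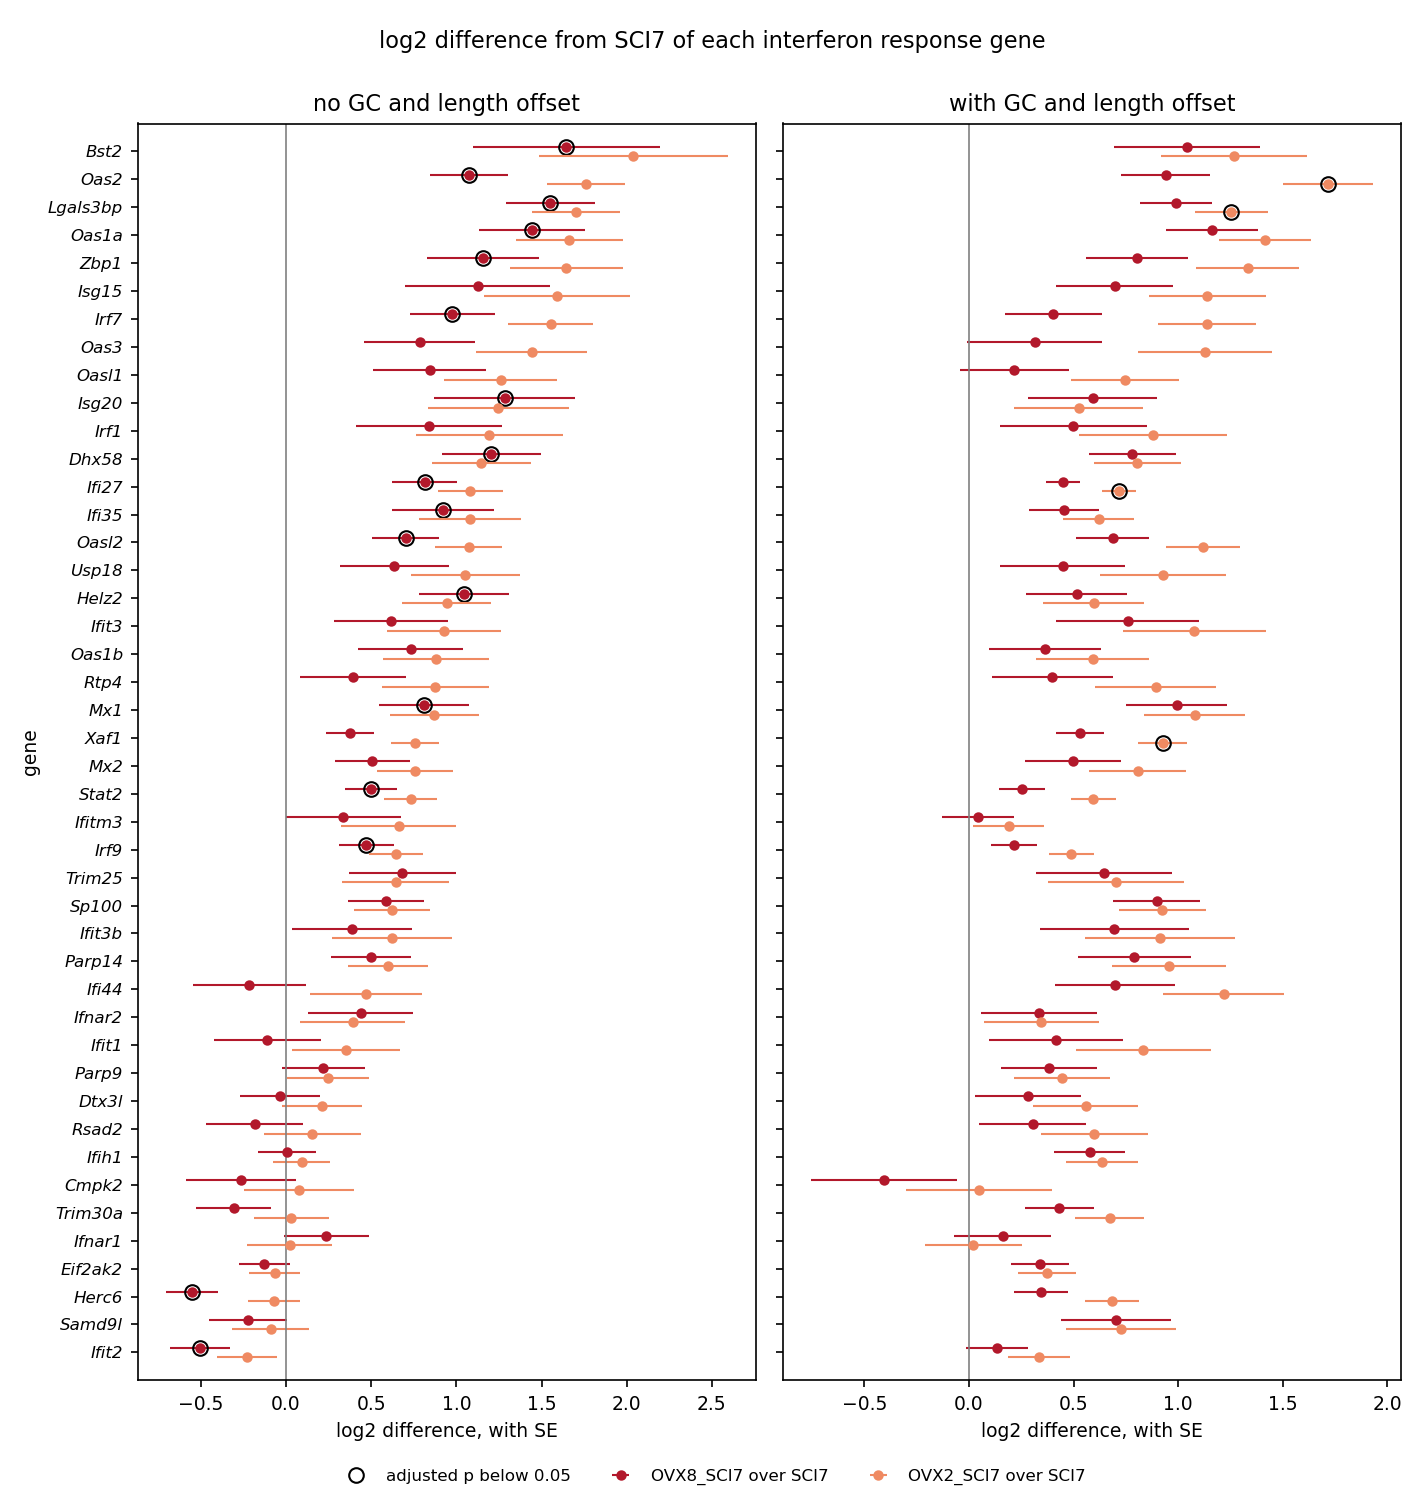
log2 difference from SCI7 of each of the 44 genes with its standard error, OVX8_SCI7 in dark red above OVX2_SCI7 in orange, without the offset at left and with the GC and length offset at right, where circles mark an adjusted p below 0.05. Without the offset 15 genes are circled above 0 and 2 below 0 in OVX8_SCI7 and none in OVX2_SCI7, and with it 4 are circled in OVX2_SCI7 and none in OVX8_SCI7, with Herc6 and Ifit2 on the other side of 0.

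The size of the difference followed the GC content of the transcript. Across the 44 genes, the Spearman correlation between GC content and the log2 difference from SCI7 was 0.84 in OVX8_SCI7 and 0.82 in OVX2_SCI7, and across 15087 protein-coding genes it was 0.82 and 0.79, where the genes share the same libraries and the values describe them only. The 9 members under 45% GC, among them Herc6, Ifit2, Ifi44, Samd9l, Trim30a and Rsad2, had a median of -0.22 in OVX8_SCI7 and 0.03 in OVX2_SCI7, against -0.71 and -0.54 for protein-coding genes in the same GC range. The 12 members from 45 to 50% GC had a median of 0.50 in OVX8_SCI7 and 0.70 in OVX2_SCI7, against -0.17 and -0.13. The 23 members at 50% GC or more had a median of 0.84 in OVX8_SCI7 and 1.15 in OVX2_SCI7, against 0.37 and 0.31.

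In each GC range the members' median was thus above that of protein-coding genes, in both comparisons. Of the 15 genes that rose in OVX8_SCI7, 13 were at 50% GC or more and 0 under 45%, and both genes that fell were under 45%. With the offset the correlation across the 44 genes was 0.06 in OVX8_SCI7 and 0.16 in OVX2_SCI7. The part of GC content in these differences was not tested beyond the offset.

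**Figure D5:**
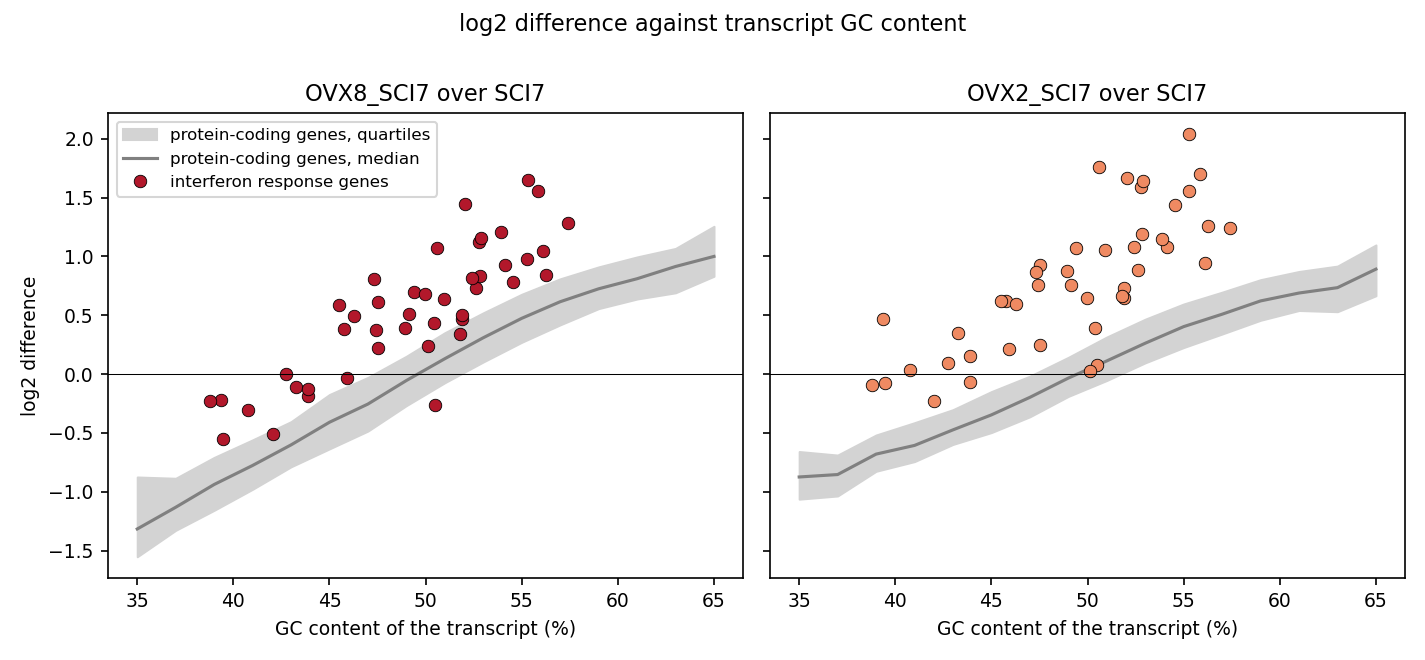
log2 difference from SCI7 against the GC content of the transcript, OVX8_SCI7 at left and OVX2_SCI7 at right, with 1 point for each of the 44 genes and the median and quartiles of protein-coding genes in grey, all without the offset. The members climb with GC content along with the other genes and mostly lie above their grey band, as the medians of 0.84 and 1.15 at 50% GC or more show beside 0.37 and 0.31.

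Genes of the pathway that are not on the list were read from separate lists of ligands, receptors, kinases, sensors, restraints and chemokines. Of 18 type I interferon genes, 0 passed the filter on low counts. Ifnb1 was counted in 1 library of the 12, at 0.0441 CPM, which is under the floor of 3 counts, and Ifnz ranged from 0.0881 to 0.310 CPM in OVX8_SCI7 and from 0 to 0.268 CPM in OVX2_SCI7 and was at 0 in every SCI7 library. All 7 libraries with Ifnz held a fractional count, so that its values rest on shared reads and are uncertain. Ifnk was counted only in OVX2_SCI7 replicate 2, at 0.0928 CPM, and Ifna15 only in SCI7 replicate 3, at 0.0545 CPM, both under the floor. The other type I interferon transcripts were at 0 in every library, and 0 counts allow up to 0.164 CPM in the shallowest case. Ifng, the type II ligand, was at or under the floor in every library, at 0.104 CPM or less.

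In OVX8_SCI7 over SCI7, 9 of the 37 pathway genes tested rose and 4 fell, against 11.9% and 15.6% of all genes, and in OVX2_SCI7 over SCI7 0 passed. Those that rose were the receptor kinase Tyk2, the interferon-inducing factors Irf3 and Irf5, the DNA sensor Tlr9, the adaptor Ticam1, the nucleases Trex1, Rnaseh2a and Rnaseh2c, and Nlrc5, an activator of class I genes, with log2 differences of 0.51 for Rnaseh2a to 1.42 for Irf5. Trex1 and Rnaseh2c had fractional counts in all 12 libraries and Rnaseh2a in 8, so that their values are uncertain. Those that fell were Jak2, Tlr3, Pias1 and Ptpn2, with -0.85 for Tlr3 to -0.42 for Pias1. With the GC and length offset none of the 13 was called, and Pias1 and Ptpn2 turned to 0.21 and 0.27.

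Cxcl9, a chemokine that attracts T cells, averaged 1.11 ± 0.210 CPM in OVX8_SCI7, 3.08 ± 1.13 CPM in OVX2_SCI7 and 0.614 ± 0.421 CPM in SCI7. Its OVX2_SCI7 libraries lay above all others, with a log2 difference over SCI7 of 2.32 (SE 0.50) that did not pass (edgeR, Benjamini-Hochberg adjusted p = 0.0520). That difference rests on few counts in SCI7, where no library exceeded 0.967 CPM and replicate 4, at 0.101 CPM, was under the floor of 3 counts. Cxcl10 averaged 7.13 ± 2.15 CPM in OVX8_SCI7, 11.7 ± 4.36 CPM in OVX2_SCI7 and 4.79 ± 2.30 CPM in SCI7.

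Markers of the cell types that the tissue holds were read beside these genes. Astrocyte markers summed to 7435 to 8631 CPM in OVX8_SCI7, 5085 to 10125 CPM in OVX2_SCI7 and 7756 to 9644 CPM in SCI7, and neuron and oligodendrocyte markers were also found in every library. Gfap was the largest part of the astrocyte sums. Gja1 was called lower in OVX8_SCI7 over SCI7, where the median log2 difference of the 5 astrocyte markers was -0.51. Markers of monocytes and macrophages, 8 of 8 tested, summed to 4121 to 7104 CPM in OVX8_SCI7, 958 to 9547 CPM in OVX2_SCI7 and 451 to 3838 CPM in SCI7. Most of each sum was Lyz2, at 3838 to 6627 CPM in OVX8_SCI7, so that the sums describe that gene above all. Lyz2, Ms4a7 and Cd14 lay above SCI7 in every OVX8_SCI7 library, as did 19.6% of all genes, but overlapped SCI7 in OVX2_SCI7. Ms4a7 stood at 46.8 to 81.0 CPM in OVX8_SCI7 against 5.12 to 38.7 CPM in SCI7, and Cd14 at 36.9 to 67.1 CPM against 8.45 to 33.0 CPM. Vcan stood at 120 to 240 CPM in OVX8_SCI7 and 94.3 to 300 CPM in SCI7, and Ccr2, Ly6c2, Mrc1 and Plac8 overlapped SCI7 as well. The median log2 difference of the 8 markers from SCI7 was 0.44 in OVX8_SCI7 and 0.52 in OVX2_SCI7. Replicates 1 and 2 of OVX2_SCI7 and replicate 3 of SCI7, the lower libraries of their groups for Bst2 and Irf1, were also the lowest of the 12 for Lyz2, the macrophage lysozyme, at 804 and 1028 CPM and 308 CPM, and none of the 8 markers passed in either comparison with SCI7.

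Markers of T and NK cells, of which 4 of 9 were tested, summed to 4.56 to 6.59 CPM in OVX8_SCI7, 3.98 to 13.2 CPM in OVX2_SCI7 and 1.36 to 3.33 CPM in SCI7. All 8 ovariectomy libraries lay above SCI7 for this sum, but Cd4 was its largest part in every OVX8_SCI7 library, at 2.70 to 3.55 CPM against 0.218 to 1.77 CPM in SCI7. Without Cd4 the order did not hold, since the sum in replicate 2 of OVX8_SCI7 then lay slightly under that in replicate 1 of SCI7. Cd8a was called higher in OVX8_SCI7 over SCI7, and in SCI7 it stood at 0.106 CPM or less, under the floor of 3 counts. Markers of B and plasma cells summed to 3.56 to 4.25 CPM in OVX8_SCI7, 2.73 to 4.15 CPM in OVX2_SCI7 and 1.56 to 2.85 CPM in SCI7, with Cd79b called higher in OVX8_SCI7 over SCI7. Microglia markers, 7 of 8 found, summed to 1275 to 1515 CPM in OVX8_SCI7, 1053 to 1763 CPM in OVX2_SCI7 and 751 to 1607 CPM in SCI7, with 1 higher and 2 lower in OVX8_SCI7 over SCI7. Neutrophil markers summed to 29.7 to 52.2 CPM in OVX8_SCI7, 20.7 to 55.3 CPM in OVX2_SCI7 and 42.2 to 53.9 CPM in SCI7. Markers of plasmacytoid dendritic cells, the main interferon producers, summed to 102 to 210.2 CPM in OVX8_SCI7, 67.3 to 231 CPM in OVX2_SCI7 and 64.6 to 169.9 CPM in SCI7, most of it from Pacsin1, which neurons also express. Of the 4 tested, Cox6a2 and Spib were called higher in OVX8_SCI7 over SCI7, and the median log2 difference of the 4 from SCI7 was 1.04 in OVX8_SCI7 and 1.12 in OVX2_SCI7. In SCI7, Cox6a2 stood at 0.109 to 0.475 CPM and Spib at 0.109 to 0.370 CPM, near the floor of 3 counts. Both calls thus rest on few counts. Ccr9, of the same list, overlapped, at 0.264 to 0.810 CPM in OVX8_SCI7 and 0.273 to 0.959 CPM in SCI7. Markers of ependymal cells, which line the central canal, summed to 36.3 to 54.2 CPM in OVX8_SCI7, 40.3 to 59.8 CPM in OVX2_SCI7 and 24.7 to 30.9 CPM in SCI7. All 8 ovariectomy libraries lay above SCI7 for that sum as well, but Foxj1 was its largest part in every library. Foxj1 was called higher in OVX8_SCI7 over SCI7, as were 11.9% of all genes. Foxj1 and Rarres2 lay above SCI7 in every OVX8_SCI7 library, whereas Ccdc153 and Tmem212 overlapped SCI7 there. Skeletal muscle markers summed to 2.73 to 47.9 CPM in OVX8_SCI7, 1.38 to 9.86 CPM in OVX2_SCI7 and 1.62 to 10.8 CPM in SCI7, with Myh4 and Actn3 called higher in OVX8_SCI7 over SCI7. No marker list was at 0 throughout, and the part of these cells in the interferon genes was not tested.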

How the data were processed

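Paired-end RNA-seq was made from total RNA of 12 spinal cord lesions. Per the submitters' processing notes, fastp 0.23.4 trimmed the reads, HISAT2 2.2.1 aligned them to GRCm39 and RSEM 1.3.3 estimated levels; DESeq2, edgeR and limma are named there too. No source used here states the library kit or whether strand entered the counting. The authors deposited expected counts, estimated counts that need not be whole, and TPM values, scaled by length and depth, for 57180 genes, and 10.96% of the deposited counts were not whole. Such fractions mark reads shared between genes, and they occurred in all 12 libraries for Oas1a, Irf1, Ifit3, Ifit3b, Trim30a, Parp9 and Dtx3l, whose values are uncertain. Both tables used held 3 value columns whose names match no sample, 6 in all, which were left out. The 525 genes without a symbol held 0.0786 to 0.158% of the counts and stayed in the tests.

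Here counts were rounded and analysed with edgeR 4.0.16 (R 4.3.3). After filterByExpr and TMM scaling, all 12 libraries entered 1 quasi-likelihood fit with group as the only term, with Benjamini-Hochberg adjustment over all genes and a threshold of 0.05. The fits were tested on simulated data. SE is the absolute log2 difference divided by the square root of F. For the offset, each library's deviation was regressed on natural splines (5 degrees of freedom) of GC content and log length, using genes averaging 5 CPM or more. Both properties were read from each gene's longest coding transcript in GENCODE vM21, which is on an earlier build than GRCm39. Alternatives were DESeq2 size factors, no filter, a stricter filter (a mean of 50 counts and, in 4 libraries, 1 CPM), DESeq2 1.42.0, limma-voom, limma-trend (limma 3.58.1) on log2(TPM + 1) or log2(TPM + 0.1) with a mean of at least 0.5 TPM or none, a fit of only the 8 libraries compared, replicate number as a block, the offset, and leaving out libraries. Counts of genes whose groups do not overlap were recomputed by alternatives added after the data were seen.

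The members, the lists of pathway and marker genes and the rule for named genes were chosen with earlier results of these data known. Libraries are given for the 2 members of each role class with the smallest joint p over the 3 groups and for Ifnar1, Ifnar2, Stat2, Irf9, Irf7, Irf1 and Isg15, 20 genes in all; genes with another order of means than the majority are named too. Other genes named were chosen after their values were seen. No 2 libraries of a group agreed within sampling noise (chi-square per gene 13.1 to 394). Depth was 18222729 to 31781695 counts per library.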

Additional observations from a re-analysis of the deposited data

Results flagged for a closer look

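Within-group spread was examined for the 20 genes whose libraries are given, for the median log2 deviation of the 44 genes and for their summed CPM, in groups of 4 libraries, 66 groups in all, and 5 held a library far from the others of its group; chance alone flags about 1 in 20 groups. Irf9 stood at 42.6 CPM in OVX8_SCI7 replicate 3, above 33.7 to 34.9 CPM in the other libraries of that group. Ifi27 stood at 72.3 CPM in OVX8_SCI7 replicate 1, above 54.6 to 57.5 CPM in the others.

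The remaining flags fell on 1 library, SCI7 replicate 3, which was low. Bst2 was at 6.22 CPM there, against 15.4 to 16.7 CPM in the other SCI7 libraries. Dtx3l was at 16.8 CPM, against 27.5 to 29.3 CPM, and Lgals3bp was at 49.2 CPM, against 89.3 to 92.4 CPM. The same library had the lowest Lyz2 level of the 12, at 308 CPM. Without it, 8 of the 44 genes passed in OVX8_SCI7 over SCI7 (7 higher and 1 lower, against 16.1% of all genes) and 0 in OVX2_SCI7 over SCI7 (0%).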

How the results depend on the processing

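Shares of all genes called stand in brackets. In OVX2_SCI7 over SCI7, where 0 of the 44 genes passed (0%), edgeR called 3 with no low-count filter (0.042%), 15 with the stricter filter (7.96%) and 4 with the GC and length offset (0.0449%), DESeq2 called 25 (20.1%), limma-voom 11 (5.01%), and limma-trend 2 at either pseudocount (0.0864% and 0.0648%). Leaving out 1 library gave 0 to 25 (0 to 34.7%), and leaving out replicates 1 and 2 of OVX2_SCI7 gave 26 (38.8%), with 31 genes whose groups did not overlap. The share of all genes was not counted for that last number. With fewer libraries a group stays apart more easily, so that it cannot be set against the count of the main fit. In OVX8_SCI7 over SCI7, where 17 passed (27.5%), the count was 23 with the 8 libraries alone (43%), 25 without replicates 1 and 2 of OVX2_SCI7 (41.9%), 11 with no low-count filter (9.78%), 3 with limma-trend and no filter (3.12%), 0 with the offset (0%), and 0 to 20 when 1 library was left out (0 to 37.2%). The cause of these changes was not tested, beyond the fewer or other genes and libraries that each alternative uses. The replicate numbers did not pair the libraries, since correlations of same-numbered deviations ran from -0.78 to 0.68, with 5 of 12 above 0.1, and 7 of 24 libraries correlated best with their own number. With the replicate number as a block, 9 genes passed in OVX8_SCI7 over SCI7 (8 higher and 1 lower, against 19% of all genes) and 0 with the block and the offset together (0.00561%). In OVX8_SCI7 over OVX2_SCI7, 0 passed under every alternative run. The median log2 difference kept its sign in every alternative run, from 0.46 to 0.71 in OVX8_SCI7 over SCI7, 0.59 to 0.95 in OVX2_SCI7 over SCI7 and -0.42 to -0.13 in OVX8_SCI7 over OVX2_SCI7.

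Some single genes changed sign. With the offset, and with the block and offset together, Ifit2 was at 0.33 and 0.34 in OVX2_SCI7 and 0.13 and 0.14 in OVX8_SCI7, Herc6 at 0.69 and 0.68 in OVX2_SCI7 and 0.34 and 0.35 in OVX8_SCI7, and Dtx3l at 0.28 and 0.27 in OVX8_SCI7, all over SCI7 and none called. Dtx3l was at 0.010 in OVX8_SCI7 with no filter. Ifnar1 in OVX2_SCI7 was at -0.00366 with the stricter filter, -0.15 with limma-trend at log2(TPM + 1), with or without the filter, and -0.16 at log2(TPM + 0.1). With 1 library left out, Herc6 in OVX2_SCI7 ran from -0.17 to 0.00670, Ifnar1 in OVX2_SCI7 from -0.17 to 0.17 and Dtx3l in OVX8_SCI7 from -0.20 to 0.043. For the 20 genes whose libraries are given, 110 values under alternatives ended a call in OVX8_SCI7 over SCI7 with the direction kept. Another 11 made a call, 11 changed sign and 368 kept the call and the direction. The sign changes of Herc6 and Ifit2 there also ended a call and are counted as changes of sign only. In OVX2_SCI7 over SCI7, 73 made a call, 14 changed sign and 413 kept both. Genes under about 5 CPM, such as Oas3 and Isg20, rest on the fewest counts.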
